A study of Homo sapiens with 6 samples.

Results

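The genes described here are the 38 that make up 3 linked DNA repair pathways: homologous recombination with its damage kinases (23 genes), the Fanconi anemia pathway (11) and mismatch repair (4). They were chosen by name from pathway membership, by a rule that uses no measured value but was set with earlier results of these data known, and all 38 were found among the 28395 gene IDs counted. All 38 also passed the filter on low counts, with 64 to 3840 reads per gene and library. The study treated HCT116 cells, a human line from a colorectal cancer, for 24 h with 50 nM TR-107 (3 libraries) or with the vehicle, 0.1% DMSO (3 libraries). TR-107 activates ClpP, a protease of the mitochondrial matrix, as a small-molecule agonist. All libraries came from polyadenylated RNA of this single line, which is known to be deficient in mismatch repair, and the labels do not say how the replicate cultures were kept apart, so the p-values refer to the spread among these libraries, which may be technical.

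Homologous recombination repairs a broken chromosome by copying the intact sister. A sensor complex binds the ends, kinases relay the alarm, nucleases resect the ends to single strands, and BRCA proteins load a recombinase that pairs them with the sister. The Fanconi pathway frees replication forks stalled at crosslinks: a core ubiquitin ligase complex, with the E2 enzyme UBE2T, marks the FANCD2-FANCI pair. Mismatch repair corrects copying errors through MutS and MutL protein pairs. Many genes of these pathways are known to be transcribed mainly in S and G2 phase, when a sister is present.

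Libraries held 17264039 to 23708135 gene counts. The 38 genes took 0.200% to 0.206% of the counts in DMSO and 0.170% to 0.179% in TR-107. The line's label was checked against epithelial markers: EPCAM, KRT8, KRT18, KRT19, CDH1 and CDX2 were above the filter in the libraries, whereas VIL1, CEACAM5 and CDX1 were at or near 0. Of the markers of other cell types, the immune ones summed to at most 0.466 CPM (counts scaled to library size, with TMM factors) per library and the endothelial ones to at most 0.993 CPM. The fibroblast list summed to 13.3 to 18.3 CPM, nearly all of it COL1A1, with COL3A1, DCN and LUM at 0.

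After TR-107, most Fanconi core genes, the strand-exchange helper RAD54B, the nuclease EXO1 and the mismatch-binding protein MSH6 were lower, while the sensor complex MRE11-RAD50-NBN, the kinase ATM and BRCA1 were higher. Of the 38 genes, 22 fell and 8 rose at a Benjamini-Hochberg adjusted p under 0.05 in edgeR's quasi-likelihood test, adjusted over all 13767 genes tested, and 8 did not pass. Among all tested genes, 28.6% fell and 29.2% rose, against 57.9% and 21.1% of the 38. The median log2 fold change (TR-107 over DMSO) was -0.20 for the 38 and 0.01 for all tested genes. The changes were moderate. Counted over all 38 genes, 8 fell by at least 1.5-fold, against 10.5% of all tested genes. Only 1 of the 38, ATM, rose by at least 1.5-fold, against 13.7% of all tested genes. For 32 of the 38 genes the groups did not overlap, against 62.4% of all tested genes.

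**Figure D1:**
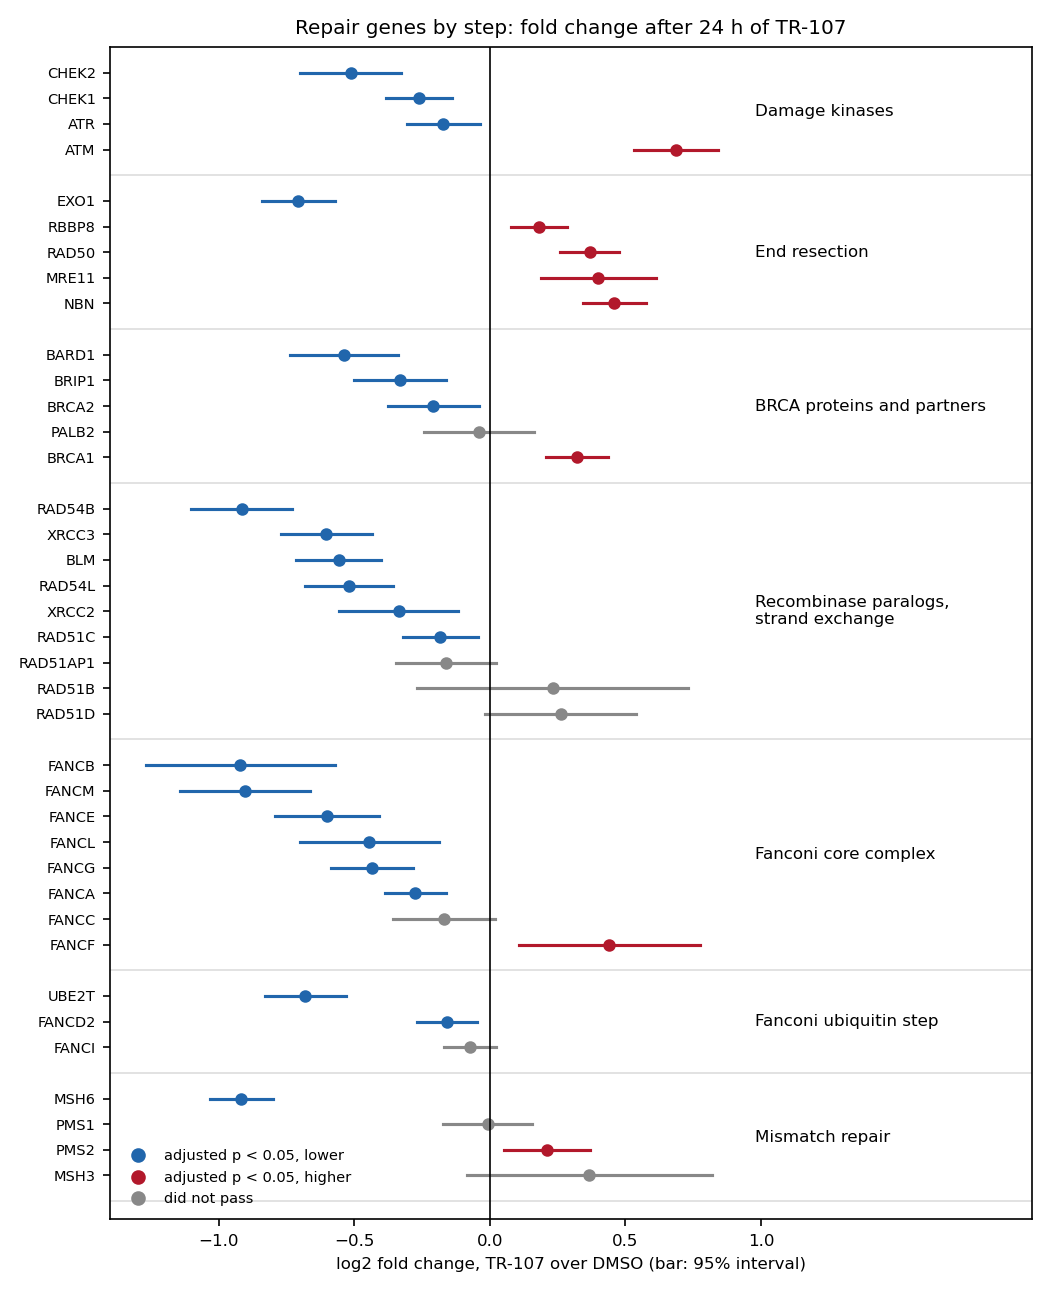
Log2 fold change of each of the 38 repair genes, TR-107 over DMSO, on the horizontal axis, with its 95% interval from edgeR's fit to 3 libraries a group; genes are grouped by step. Blue genes fell (22), red genes rose (8) and grey genes did not pass (8), with FANCB lowest at -0.92 and ATM highest at 0.69.

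Promoters are shown for 5 genes that moved differently, since many genes of these pathways are known to follow the cell cycle, which the choice by pathway did not use. Of the 38, 35 had entries in a RefSeq promoter table (GRCh38.p14), 50 promoters in all, each running from 250 bases before to 50 after a transcript start; FANCI, NBN and RAD54B were not among them. Both strands were searched for E2F words (TTTCCCGC, TTTCGCGC, TTTGCCGC or TTTGGCGC), for the cell-cycle element CHR (TTTGAA or TTCGAA) and for CCAAT. No word contains a word of another motif. The stretches below are those of the 250 bases before a start that no GENCODE v29 exon covers, 5′ to 3′ on the gene's strand, with matches in capitals. UBE2T, FANCA and FANCM fell, FANCC did not pass the test and PMS2 rose.
UBE2T promoter, chr1:202341981-202342186, strand -: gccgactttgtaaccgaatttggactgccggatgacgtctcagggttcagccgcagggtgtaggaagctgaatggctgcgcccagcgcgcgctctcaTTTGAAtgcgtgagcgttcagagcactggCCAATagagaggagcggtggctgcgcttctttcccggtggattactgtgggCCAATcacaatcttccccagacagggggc
FANCA promoter, chr16:89816658-89816897, strand -: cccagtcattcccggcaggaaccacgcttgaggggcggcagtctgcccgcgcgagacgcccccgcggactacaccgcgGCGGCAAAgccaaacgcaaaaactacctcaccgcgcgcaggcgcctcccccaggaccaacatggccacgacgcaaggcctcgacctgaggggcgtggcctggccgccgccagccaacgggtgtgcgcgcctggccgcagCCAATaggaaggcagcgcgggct
FANCM promoter, chr14:45135680-45135929, strand +: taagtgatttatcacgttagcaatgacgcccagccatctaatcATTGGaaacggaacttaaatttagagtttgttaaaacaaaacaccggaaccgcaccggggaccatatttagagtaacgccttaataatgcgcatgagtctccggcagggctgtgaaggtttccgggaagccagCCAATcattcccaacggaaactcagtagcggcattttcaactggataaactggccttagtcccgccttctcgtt
FANCC promoter, chr9:95317710-95317959, strand -: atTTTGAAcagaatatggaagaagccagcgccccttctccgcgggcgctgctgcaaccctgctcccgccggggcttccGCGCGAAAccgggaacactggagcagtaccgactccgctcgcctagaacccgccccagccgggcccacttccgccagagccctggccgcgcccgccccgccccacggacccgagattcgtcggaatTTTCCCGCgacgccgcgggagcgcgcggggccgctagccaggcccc
PMS2 promoter, chr7:6009126-6009244, strand -: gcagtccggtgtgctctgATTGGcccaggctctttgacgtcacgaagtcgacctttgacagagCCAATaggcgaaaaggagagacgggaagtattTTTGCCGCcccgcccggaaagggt

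FANCA and PMS2, which moved in opposite directions, each hold 1 E2F word in these stretches. FANCC holds 2, and UBE2T and FANCM hold none. Another FANCC promoter, chr9:95317205-95317504, is not shown and holds 0 words of any of the motifs. Over the whole 300 bases, an E2F word was found in 9 of the 50 promoters (18%), against 4.9% of the 15689 promoters of tested genes and 3.31% of all 35116 in the table. It was found in 5 of the 29 promoters of genes that fell (17.2%) and in 2 of the 11 promoters of genes that rose (18.2%). Those 2 are overlapping promoters of PMS2 with the same E2F word, so 1 site counts for both, also among the 50. The 5 belong to different genes, EXO1, FANCA, FANCD2, MSH6 and XRCC2. The CHR words were found in 8% of the 50 promoters and in 11.6% of those of tested genes, and CCAAT in 46% and 34.6%. CCAAT was in 44.8% of the promoters of genes that fell and in 63.6% of those that rose. The latter include overlapping promoters of PMS2 and of ATM. For CHR the shares were 6.90% and 9.09%. These matches describe letters in the window, not binding.

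The damage kinases moved apart. ATM, the kinase that answers double-strand breaks, measured 37.6, 37.6 and 37.6 CPM in the DMSO libraries and 67.5, 54.1 and 60.2 CPM in the TR-107 libraries. All 3 TR-107 libraries were higher, and they were more spread than the controls. The log2 fold change was 0.69 ± 0.08 (SE; edgeR adjusted p = 2.57e-10), 1.61-fold. ATR, the kinase that answers exposed single strands, fell from 62.5 ± 1.48 to 55.6 ± 2.46 CPM (SD, n = 3), and the ratio of ATM to ATR counts within a library went from 0.616, 0.587 and 0.602 in DMSO to 1.23, 0.928 and 1.12 in TR-107. This small fall of ATR (edgeR adjusted p = 0.0251) was lost without DMSO replicate 2 (0.0632), TR-107 replicate 1 (0.0616) or TR-107 replicate 3 (0.0914). The kinases downstream fell too. CHEK2, which ATM activates, measured 33.7, 34.4 and 42.0 CPM in DMSO and 26.1, 25.4 and 25.9 CPM in TR-107 (log2 fold change -0.51 ± 0.09, SE; edgeR adjusted p = 7.37e-06). DMSO replicate 3 stood highest, and the groups did not overlap. CHEK1, which ATR activates, fell from 78.0 ± 0.701 to 65.1 ± 3.31 CPM (SD, n = 3). ATM is divergent from NPAT, with which it shares 0.597% of its exon bases, and NPAT was lower in TR-107 (log2 fold change -0.25, edgeR adjusted p = 0.00854).

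Genes that sense and resect broken ends mostly rose, 4 of 5, against 29.2% of all tested genes. NBN, the adaptor of the sensor complex, measured 85.4, 82.1 and 96.7 CPM in DMSO and 124, 115 and 124 CPM in TR-107 (log2 fold change 0.46 ± 0.06, SE; edgeR adjusted p = 4.86e-09). RAD50, its coiled-coil ATPase, measured 93.5, 85.5 and 94.3 CPM in DMSO and 116, 115 and 122 CPM in TR-107 (0.37 ± 0.05, SE; edgeR adjusted p = 1.66e-07). MRE11, its nuclease, measured 19.6, 20.2 and 17.0 CPM in DMSO and 23.5, 24.4 and 26.9 CPM in TR-107 (0.40 ± 0.11, SE; edgeR adjusted p = 0.00119). In each of the 3 subunits every TR-107 library was above every DMSO library. The folds were 1.38, 1.29 and 1.32 for NBN, RAD50 and MRE11. Groups did not overlap, in either direction, for 62.4% of all tested genes. RBBP8, which encodes CtIP, the cofactor that starts resection, rose less, from 122 ± 6.98 to 138 ± 4.30 CPM (SD, n = 3; 1.13-fold). EXO1, the exonuclease that extends resection and also acts in mismatch repair, went the other way. It measured 75.0, 70.4 and 73.7 CPM in DMSO and 45.7, 44.9 and 43.6 CPM in TR-107, 1.63-fold lower (edgeR adjusted p = 2.87e-12). Libraries of each group lay close together for EXO1, far from the other group.

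BRCA1 and its partner BARD1 moved in opposite directions. BRCA1, a ubiquitin ligase subunit that promotes resection and loading, measured 76.8, 80.2 and 80.3 CPM in DMSO and 105, 96.4 and 95.1 CPM in TR-107 (log2 fold change 0.32 ± 0.06, SE; edgeR adjusted p = 5.52e-06). BARD1, its partner in that ligase, measured 34.6, 33.9 and 35.6 CPM in DMSO and 20.7, 22.5 and 28.4 CPM in TR-107 (-0.54 ± 0.10, SE; edgeR adjusted p = 9.64e-06). TR-107 replicate 3 was the highest treated library for BARD1 and still lay below all controls. The ratio of BRCA1 to BARD1 counts within a library, which is not corrected for length, was 2.22, 2.36 and 2.25 in DMSO and 5.09, 4.29 and 3.35 in TR-107. BRCA2, which loads the recombinase, fell from 38.2 ± 0.992 to 33.1 ± 1.94 CPM (SD, n = 3; edgeR adjusted p = 0.0305), a call lost without DMSO replicate 1 (0.0803) or TR-107 replicate 1 (0.135). BRIP1, a helicase that binds BRCA1, was 1.26-fold lower. PALB2, the bridge between BRCA1 and BRCA2, did not pass (24.3 ± 2.63 and 23.7 ± 0.718 CPM, SD, n = 3), with a 95% interval of the log2 fold change from -0.24 to 0.16.

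**Figure D2:**
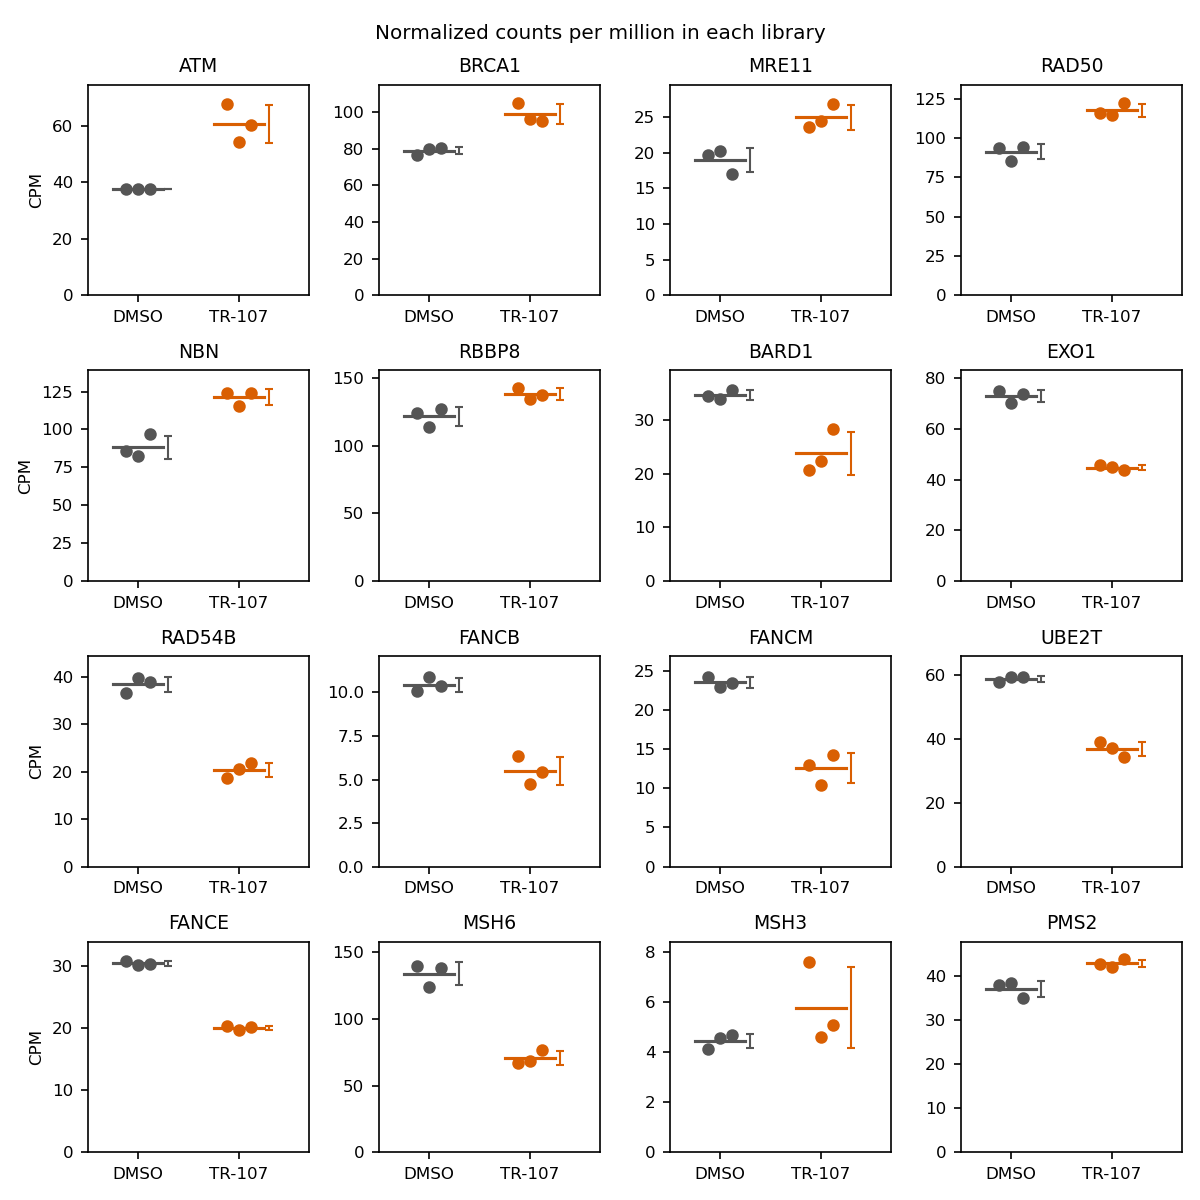
TMM-scaled CPM (vertical axis, from 0) of 16 repair genes in each of the 3 DMSO (grey) and 3 TR-107 (orange) libraries; horizontal lines are means and error bars are SD. ATM, BRCA1, MRE11, RAD50, NBN, RBBP8 and PMS2 lie higher in every TR-107 library, MSH3 overlaps, and the other genes shown lie lower.

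Among the helpers of strand exchange, 6 of 9 fell and 0 rose, against 28.6% and 29.2% of all tested genes. By DESeq2 also 0 rose, and 0 of the 3 others reached an unadjusted p under 0.05 in edgeR's test. RAD54B, a DNA translocase, measured 36.6, 39.7 and 39.0 CPM in DMSO and 18.7, 20.7 and 21.8 CPM in TR-107 (log2 fold change -0.91 ± 0.09, SE; edgeR adjusted p = 1.88e-11). No TR-107 library came near a control. Its relative RAD54L, which has the same activity, fell from 51.7 ± 0.827 to 36.1 ± 4.15 CPM (SD, n = 3), and BLM, the helicase that dissolves joined molecules, was 1.47-fold lower. XRCC3, a paralog of the recombinase, measured 55.7, 50.5 and 61.7 CPM in DMSO and 37.9, 40.5 and 32.4 CPM in TR-107 (-0.60 ± 0.08, SE; edgeR adjusted p = 5.89e-08). The groups did not overlap for XRCC3. Its partner RAD51C fell only from 62.1 ± 3.10 to 54.7 ± 3.59 CPM (SD, n = 3; edgeR adjusted p = 0.0209). That call was lost without DMSO replicate 1 (0.106), TR-107 replicate 2 (0.105) or TR-107 replicate 3 (0.0629).

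XRCC2, another paralog, measured 31.5, 27.0 and 25.5 CPM in DMSO and 21.9, 18.4 and 25.9 CPM in TR-107. It passed the test (log2 fold change -0.34 ± 0.11, SE; edgeR adjusted p = 0.00798) although TR-107 replicate 3 lay above DMSO replicate 3. Without DMSO replicate 1 the adjusted p was 0.0808 and without TR-107 replicate 2 it was 0.0989. The remaining paralogs did not pass: RAD51D, a partner of XRCC2, had a 95% interval of the log2 fold change from -0.02 to 0.54, and RAD51B, with 64 to 106 reads a library, one from -0.27 to 0.73. RAD51AP1, which binds the recombinase, did not pass either (-0.34 to 0.02).

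In the Fanconi core complex, 6 of 8 genes fell and 1, FANCF, rose, against 28.6% and 29.2% of all tested genes. The median log2 fold change over the complex was -0.44, against 0.01 over all tested genes. FANCB, a subunit of its catalytic module, measured 10.1, 10.9 and 10.3 CPM in DMSO and 6.37, 4.77 and 5.41 CPM in TR-107. FANCM, the translocase that anchors the complex to DNA, measured 24.2, 22.9 and 23.4 CPM in DMSO and 12.9, 10.5 and 14.2 CPM in TR-107. Both fell well outside the spread of the libraries: the log2 fold changes were -0.92 ± 0.17 (SE) for FANCB and -0.90 ± 0.12 (SE) for FANCM, with edgeR adjusted p of 1.36e-05 and 1.58e-08. FANCE, which contacts FANCD2, measured 30.9, 30.2 and 30.4 CPM in DMSO and 20.3, 19.7 and 20.2 CPM in TR-107, 1.52-fold lower. Libraries of each group agreed closely for this gene. FANCL, the catalytic ligase subunit, FANCG, a scaffold subunit, and FANCA, its partner, fell by 0.44, 0.43 and 0.28 on the log2 scale.

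FANCC, which sits in a module with FANCE and FANCF, did not pass the test, with 29.3 ± 2.19 and 26.1 ± 0.804 CPM (SD, n = 3), although its groups did not overlap. FANCF, the adaptor of that module, measured 6.58, 7.04 and 9.30 CPM in DMSO and 9.58, 10.4 and 11.2 CPM in TR-107. The lowest treated library lay just above the highest control. Its rise (log2 fold change 0.44 ± 0.17, SE; edgeR adjusted p = 0.0209) rested on few reads, and the adjusted p was 0.122 without DMSO replicate 1, 0.0940 without DMSO replicate 2, 0.0749 without TR-107 replicate 3 and 0.0574 by DESeq2.

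The ubiquitin step joins an enzyme, UBE2T, to its substrates FANCD2 and FANCI. UBE2T, the E2 enzyme, measured 57.8, 59.4 and 59.5 CPM in DMSO and 38.9, 37.3 and 34.3 CPM in TR-107, 1.60-fold lower (edgeR adjusted p = 1.25e-10). The groups lay far apart. FANCD2 fell from 94.9 ± 1.81 to 85.1 ± 2.40 CPM (SD, n = 3; log2 fold change -0.16, edgeR adjusted p = 0.0127). FANCI measured 151 ± 6.61 and 144 ± 0.523 CPM (SD, n = 3) and did not pass, with a 95% interval of the log2 fold change from -0.17 to 0.02. The ratio of FANCD2 to UBE2T counts within a library was 1.62, 1.59 and 1.63 in DMSO and 2.26, 2.24 and 2.44 in TR-107. USP1 and WDR48, which form the enzyme that removes the ubiquitin again, rose 1.40-fold and 1.32-fold.

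Mismatch repair was split. MSH6, the MutS subunit that recognises base mismatches and short loops, measured 140, 124 and 138 CPM in DMSO and 67.3, 68.6 and 76.7 CPM in TR-107. Every treated library was far below every control (log2 fold change -0.92 ± 0.06, SE; edgeR adjusted p = 1.79e-17). It had the smallest p among the 38 genes. MSH3, the alternative subunit for larger loops, measured 4.12, 4.54 and 4.67 CPM in DMSO and 7.60, 4.60 and 5.08 CPM in TR-107. TR-107 replicate 1 stood apart for MSH3 and the groups overlapped; the gene did not pass (0.37 ± 0.22, SE; edgeR adjusted p = 0.161), and the log2 fold change was 0.12 without that library. PMS2, the MutL endonuclease subunit, rose from 37.1 ± 1.84 to 42.9 ± 0.872 CPM (SD, n = 3; edgeR adjusted p = 0.0208). The adjusted p of PMS2 was 0.117 without DMSO replicate 3, 0.0530 without TR-107 replicate 3 and 0.112 under unscaled library size. PMS1, another MutL subunit, did not pass, with a 95% interval of the log2 fold change from -0.17 to 0.16.

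How the counting treated strand and multi-mapping reads is not stated in the labels, and 9 of the 38 genes share at least 10% of their exon bases with another gene in GENCODE v29. XRCC3 shares 76.7% with KLC1 on the opposite strand, and KLC1 rose (log2 fold change 0.41), the other way from XRCC3. RAD54L shares 25.1% with LRRC41 (0.52), FANCL 18.7% with VRK2 (0.56) and MSH6 16.2% with FBXO11 (0.44), all on opposite strands and all partners higher in TR-107. RAD50 shares 79.7% with a gene model that is not analysed here, and RAD54B 59.1% with FSBP, for which 0 counts were listed in all 6 libraries. ATR, FANCA and FANCF complete the 9. Another 7 of the 38 have pseudogenes named after them, among them PMS2 (15) and CHEK2 (6). What these overlaps add to or take from the counts was not tested.

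Other genes of the same pathways were counted beside all tested genes, of which 28.6% fell and 29.2% rose. Of 32 other homologous recombination factors, 10 fell (31.3%) and 9 rose (28.1%), with a median log2 fold change of -0.07, so their counts are close to those of all tested genes. RECQL4, a helicase, and the single-strand binding subunits RPA1 and RPA2 fell by 0.66, 0.50 and 0.46 on the log2 scale, while RECQL5, a helicase that acts against the recombinase, the nuclease MUS81 and FIGNL1 rose by 0.70, 0.65 and 0.55. Of 14 other Fanconi factors, 3 fell (21.4%) and 6 rose (42.9%; 3 genes without DMSO replicate 1). CENPX, a histone-fold partner of FANCM, fell from 119 to 46.6 CPM, 2.55-fold, and RFWD3, a ubiquitin ligase, and DCLRE1B, a nuclease, fell 1.47-fold and 1.57-fold. REV3L, the catalytic subunit of a translesion polymerase, rose 1.27-fold.

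**Figure D3:**
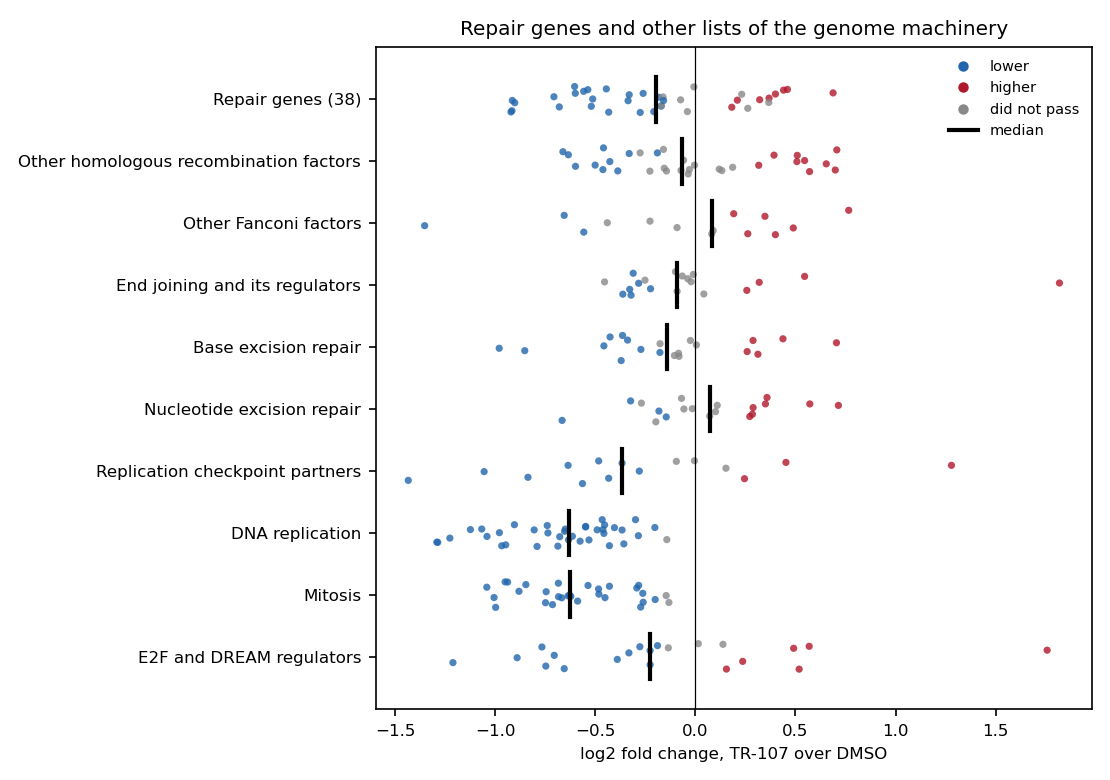
Log2 fold change (horizontal axis) of every tested gene of the 38 repair genes and of 9 other lists, 1 point a gene, coloured by edgeR's call; black bars are medians. The repair genes spread to both sides around a median of -0.20, while all DNA replication genes lie below 0 around a median of -0.63.

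Pathways that repair without copying a sister chromatid were counted in the same way. Of 19 end joining genes, 6 fell (31.6%) and 4 rose (21.1%; 2 genes without DMSO replicate 3 or with library size alone), near the 28.6% and 29.2% of all tested genes. The Ku subunits XRCC5 and XRCC6 fell by 0.36 and 0.31 on the log2 scale, as did the regulator RIF1 by 0.22. The gap-filling polymerase POLL and the end-joining factor APLF rose by 0.55 and 1.82, APLF from a low level (0.847 to 3.01 CPM), and POLM by 0.32 (not called without DMSO replicate 3 or TR-107 replicate 1, with adjusted p of 0.0948 and 0.0591).

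Of 20 base excision genes, 9 fell (45%) and 5 rose (25%), but the number that rose depended on the setting. It was 1 without TR-107 replicate 2, 2 without DMSO replicate 3 or TR-107 replicate 1, by DESeq2 or with library size alone, and 3 without DMSO replicate 1 or by limma-voom. The glycosylases UNG and NTHL1 and the break sensor PARP1 fell by 0.85, 0.98 and 0.46 on the log2 scale, and the glycosylase MUTYH rose by 0.70. MBD4 and POLB rose by 0.31 and 0.26, calls lost without TR-107 replicate 2 (adjusted p of 0.0943 and 0.0503). POLB also lost it without DMSO replicate 2 (0.101), DMSO replicate 3 (0.0905) or TR-107 replicate 1 (0.116), by DESeq2 and with library size alone. Of 19 tested nucleotide excision genes, 4 fell (21.1%) and 7 rose (36.8%): ERCC1, a nuclease subunit, and GTF2H3 rose by 0.71 and 0.28, and the helicase ERCC3, DDB1 and RAD23B fell by 0.32, 0.18 and 0.15.

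Replication checkpoint genes fell more often than they rose. Of 15, 9 fell (60%) and 3 rose (20%), against 28.6% and 29.2% of all tested genes. CDC25A, a phosphatase that drives S phase entry, fell from 77.4 to 28.6 CPM, CLSPN, the adaptor that lets ATR activate CHEK1, from 127 to 61.1 CPM, and the histone H2AX from 390 to 218 CPM. RAD17, which loads the checkpoint clamp, rose from 6.61 to 15.9 CPM, 2.43-fold, and RHNO1 1.37-fold. HUS1, a clamp subunit, rose 1.19-fold, a call lost without DMSO replicate 2 (adjusted p of 0.0571), DMSO replicate 3 (0.0955) or TR-107 replicate 3 (0.123), by DESeq2 (0.0561) and under unscaled library size (0.0869).

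Replication and mitosis genes moved with the genes that fell, whereas 28.6% of all tested genes fell and 29.2% rose. Of 37 DNA replication genes, 36 fell (97.3%, median log2 fold change -0.63), with MCM4, FEN1 and PCNA first by p at -1.29, -1.29 and -1.12. The summed level of the 37 was 6586 to 6681 CPM in DMSO and 4098 to 4192 CPM in TR-107. Of 30 mitosis genes, 28 fell (93.3%, median -0.62), with CCNB1, BIRC5 and PLK1 first by p. The summed level of the 38 repair genes was 1953 to 2024 CPM in DMSO and 1746 to 1807 CPM in TR-107. Of 21 E2F and DREAM regulators, 12 fell (57.1%), including TFDP1 (-0.70), MYBL2 (-0.75) and E2F2 (-1.21). Another 6 rose (28.6%, near the 29.2% of all tested genes), including the inhibitor CDKN1A (3.38-fold), E2F7 (1.41-fold) and TFDP2 (1.43-fold). In bulk RNA, fewer cells in S or G2 phase and less RNA of these genes per cell cannot be told apart. The part of the cell cycle in the changes of the 38 was not tested.

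Levels were also summed over the genes of each step. The end resection genes summed to 372 to 409 CPM in DMSO and 433 to 454 CPM in TR-107, and the groups did not overlap. The strand-exchange helpers summed to 327 to 342 CPM and 243 to 258 CPM, and the Fanconi core genes to 287 to 308 CPM and 225 to 239 CPM. The mismatch repair genes summed to 206 to 224 CPM and 156 to 172 CPM, although only 1 of the 4, MSH6, fell, and PMS2 rose. The damage kinases overlapped (210 to 220 CPM and 202 to 211 CPM), with ATM up and the others down. The Fanconi ubiquitin step summed to 300 to 315 CPM in DMSO and 263 to 270 CPM in TR-107. For BRCA1 and its partners the sums were 222 to 226 CPM and 215 to 220 CPM.

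**Figure D4:**
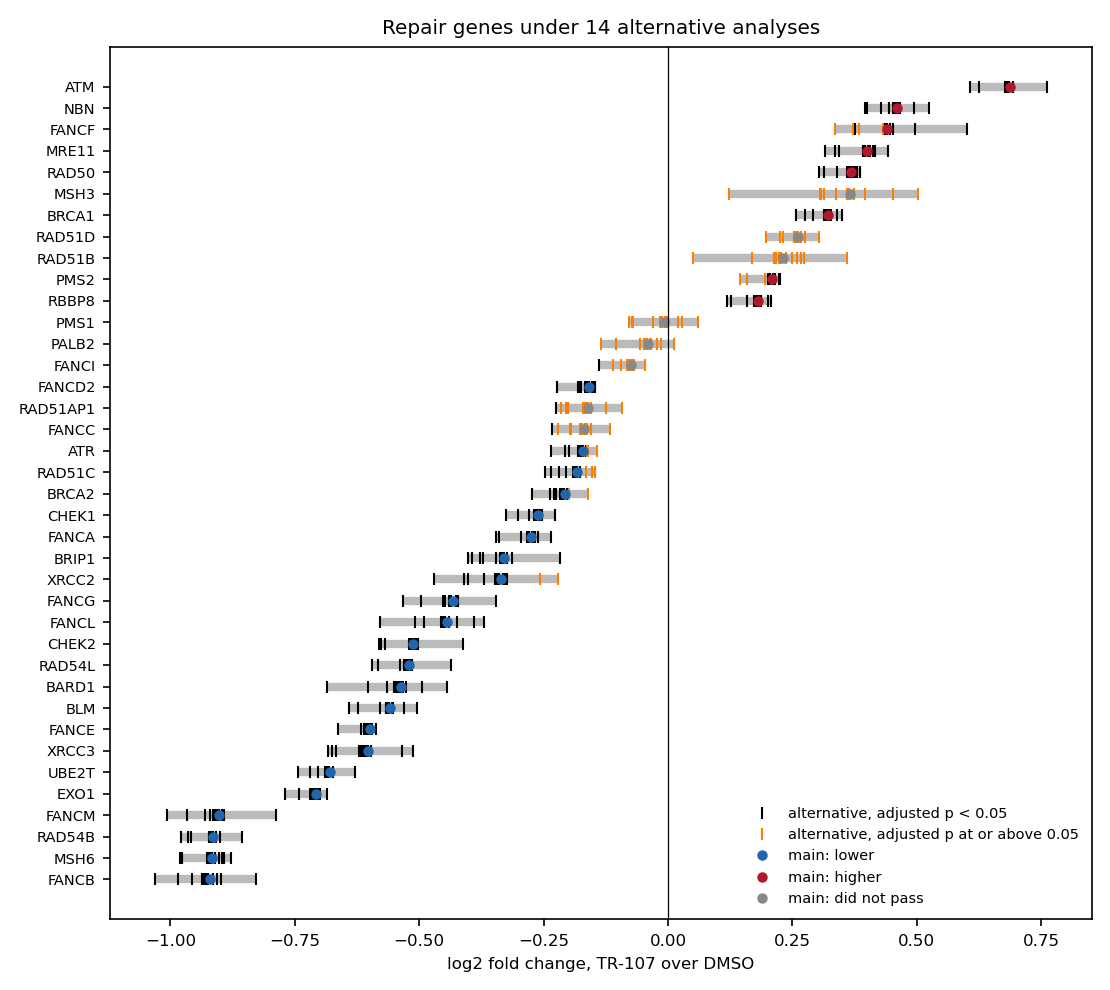
Log2 fold change (horizontal axis) of each of the 38 repair genes in the reported analysis (dot) and under 14 alternatives (ticks; grey bars span them, orange ticks did not pass an adjusted p of 0.05). No called gene changed direction, and the genes whose calls were lost lie between -0.34 (XRCC2) and 0.44 (FANCF).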

How the data were processed

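RNA of 6 HCT116 libraries, 3 given TR-107 and 3 given DMSO, was sequenced as poly(A)-enriched pairs, per the labels' protocols. The authors deposited raw counts of reads for each NCBI Gene ID, made, per the submitters' processing notes, with FastQC, Trimmomatic, HISAT2 and featureCounts on hg38. Their versions, the annotation and how strand and multi-mapping reads were treated are not given in the labels. Of 28395 IDs, 27745 matched a RefSeq symbol (GRCh38.p14); the other 650 stayed in the fit under their IDs.

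Groups came from the treatment labels and replicate numbers from the titles. The test was edgeR 4.0.16 (R 4.3.3): TMM scaling, filterByExpr (13767 genes kept), robust quasi-likelihood fit with group alone, Benjamini-Hochberg adjustment over all genes tested, threshold 0.05. CPM used TMM-scaled library sizes. The SE is the log2 fold change divided by the root of its F statistic, and 95% intervals use the fit's degrees of freedom. No list was tested as a set. Counts between replicates differed by 3.92 to 6.05 times sampling noise (chi-square per degree of freedom), so each library was 1 replicate. The fits were tested on simulated data.

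The 38 genes and the other lists were chosen with earlier results of these data known. All 38 are named; of each other list, up to 3 called genes per direction with the smallest p. Alternatives were relative log expression or upper quartile factors, library size alone, no filter, DESeq2 1.42.0, limma-voom (limma 3.58.1), a block on replicate number, a minimum of 1 CPM in 3 libraries, and leaving out each library. Exon overlaps and promoter stretches used GENCODE v29 (GRCh38). Plots used matplotlib 3.10.9.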

Additional observations from a re-analysis of the deposited data

How the results depend on the processing

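Of the 38 repair genes, 22 fell and 8 rose in the reported analysis, and 19 to 25 fell and 6 to 8 rose over the 14 alternatives. Leaving out 1 library gave 19 to 22 lower and 6 to 8 higher, and a median log2 fold change of -0.23 to -0.20. Of 532 values recomputed for single genes, 512 kept their direction and side of the threshold, 17 lost the call, 3 gained it and 0 changed direction while called. The lost calls belong to BRCA2, RAD51C, XRCC2, ATR, FANCF and PMS2, and the gained ones, with library size alone, to RAD51AP1, FANCC and FANCI. Library size alone moved the median of all tested genes from 0.01 to -0.05 and that of the 38 to -0.26. Same-numbered libraries did not deviate together (correlations of -0.03, -0.02 and 0.05), and with the replicate number as a block 22 repair genes fell, 8 rose and 7918 genes of all passed, against 7956. Of 48 named genes of the other lists, 4 lost a call in some alternative. Depth limits RAD51B, MSH3, FANCB and FANCF most, and intervals cover the spread of 3 libraries a group only.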
